A study of Homo sapiens with 6 samples.

Results

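The *CEP* genes are the protein-coding genes whose symbol is CEP followed by a number and, in some, letters. Of 37 such symbols in the count file, 36 were studied here, out of 61806 rows and 19149 genes tested. The genes were selected on their counts: each had at least 10 counts in every one of the 6 libraries, so no member entered through 1 group alone. Just inside this minimum were *CEP112*, whose lowest count was 10, and *CEP126*, whose lowest was 12, while the next member, *CEP83*, had at least 213 counts. Just outside it was *CEP295NL*, with 14, 28 and 4 counts in shNC and 26, 20 and 0 in shATGL.

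RNA was sequenced from MV4-11, a human monocytic AML cell line that carries *FLT3*-ITD. Of the 6 libraries, 3 came from cells with the control shRNA (shNC 1 to 3) and 3 from cells labelled shATGL (shATGL 1 to 3), whose shRNA is aimed at *ATGL*, the triglyceride lipase gene with the symbol *PNPLA2*. The methods describe lentiviral vectors and puromycin selection of stable lines. Neither the shRNA used for these libraries nor whether the lines were pools or clones is given in the sources used here. The labels do not say that replicates were separate cultures, so p-values measure the spread between these samples, which may be technical.

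Centrioles are barrels of microtubules, and the centrosome is a pair of them in a protein cloud from which microtubules grow. Centrioles duplicate once per cell cycle. The mother centriole carries appendages and can dock at the membrane as the base of a cilium. CEP proteins were named as centrosomal proteins of a given apparent mass and are not a family by sequence. They build the new centriole, anchor microtubules, link the centrosomes of a cell or organize the ciliary base.

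The level of *PNPLA2* in CPM, counts relative to the normalized library size, was 101, 97.0 and 107 in shNC 1 to 3 and 102, 98.1 and 104 in shATGL 1 to 3. The groups overlapped, and the log2 fold change was -0.01 ± 0.06 (SE; edgeR adjusted p = 0.979). The libraries are therefore called by their labels, and no direction below is tied to a measured fall of the target. Total counts were between 59674064 and 74808280 per library, with the smallest total in shATGL 3, and mitochondrial genes took 6.34% to 8.17%. shATGL 3 stood apart from shATGL 1 and 2: the chi-square per degree of freedom of the counts was 85.7 and 89.7 against those libraries, and 12.3 between shATGL 1 and 2. All 8 markers of MV4-11 were detected in every library, with a summed level of 1959 to 2070 CPM in shNC, against 1850 to 1978 CPM in shATGL. Of 13 markers of other cell types, 8 were at 0 counts in every library and 2 were detected in all, among them the endothelial marker *PECAM1*. The summed level of these 13 was 267 to 270.0 CPM in shNC, against 261 to 284 CPM in shATGL.

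Most *CEP* genes were higher in shATGL 1 and shATGL 2 than in any other library. shATGL 3 lay within the control range in 15 of the 36 genes, below every control library in 16 and above every one in 5. The shares of all genes tested were not taken for these counts of shATGL 3. In 27 of the 36 genes shATGL 1 and 2 were the highest pair of the 6 libraries, which held for 20.7% of all genes tested. In these 27, the mean CPM of shATGL 1 and 2 was 1.13 to 2.69 times the shNC mean, with a median of 1.55. The CPM of shATGL 3 was 0.371 to 1.30 times the shNC mean, with a median of 0.953. The other 9 genes, among them *CEP19*, *CEP20*, *CEP41*, *CEP68*, *CEP72*, *CEP76*, *CEP85* and *CEP250*, had ratios of 0.818 to 1.06 for shATGL 1 and 2. In bulk RNA, fewer cells of a type and less RNA per cell cannot be told apart.

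The summed level of the 36 genes was 937, 991 and 881 CPM in shNC, against 1275, 1298 and 889 CPM in shATGL. The sums of shATGL 1 and 2 were above every control library, and the sum of shATGL 3 was inside the control range. Relative to the shNC mean on the log2(CPM + 1) scale, the median of the 36 genes was -0.01, 0.09 and -0.07 in shNC 1 to 3, and 0.36, 0.38 and -0.06 in shATGL 1 to 3. The median of all genes tested was between -0.01 and 0.01 in each library.

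**Figure D1:**
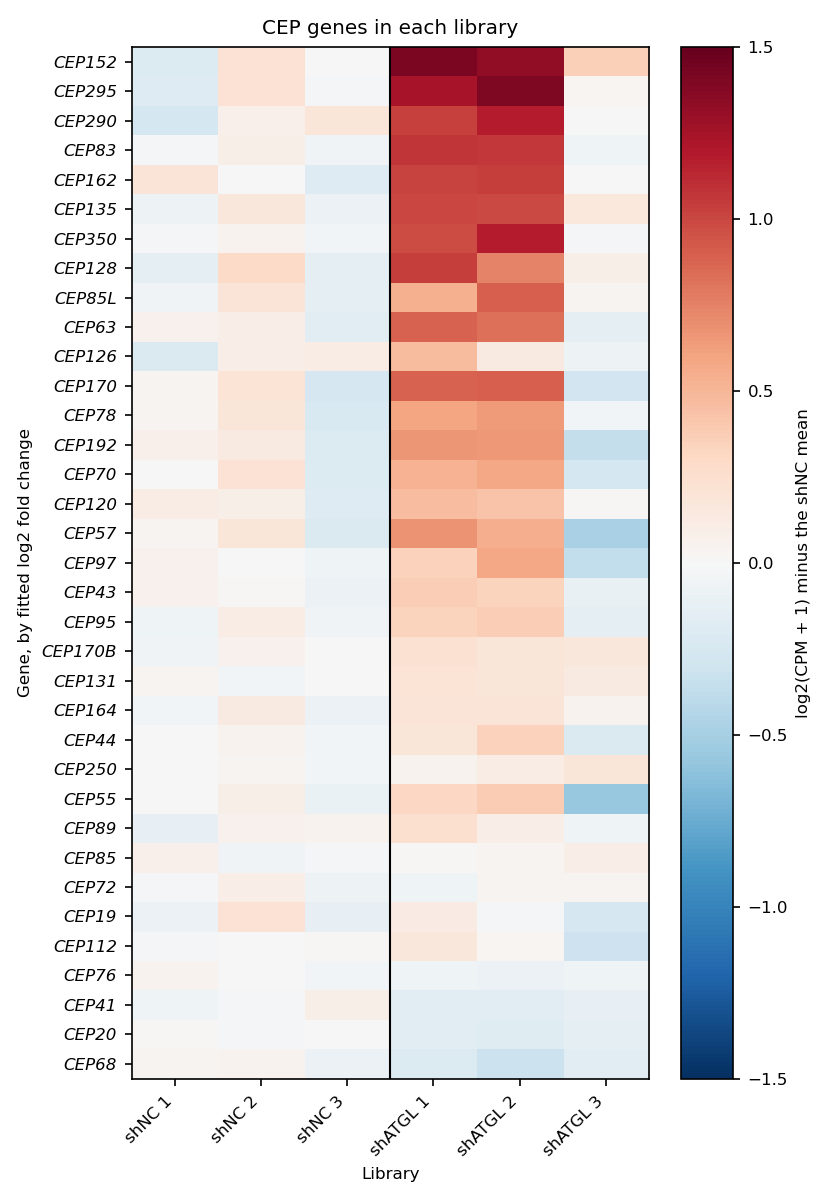
The 35 *CEP* genes named here (rows, ordered by fitted log2 fold change) in the 6 libraries (columns), coloured by log2(CPM + 1) minus the mean of the 3 shNC libraries. The columns of shATGL 1 and 2 are red in the upper rows, with medians over the 36 genes of 0.36 and 0.38, and that of shATGL 3 is close to the control columns, with a median of -0.06.

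With all 6 libraries, 29 *CEP* genes had a log2 fold change above 0 and 7 below, a share of 80.6% against 51.9% of all genes tested. The median log2 fold change was 0.24, and that of all genes tested was 0.01. None of the 36 passed an adjusted p under 0.05 in edgeR, where the lowest was 0.392. Over all genes 1 was called, which is 0.00522%, where a call needs an adjusted p under 0.05 and a change of 2-fold or more. At an unadjusted p under 0.05, 12 *CEP* genes were higher, beside 5.77% of all genes tested, and 1 was lower, beside 5.94%. DESeq2 called 1 of the 36, *CEP152*, beside 0.0594% of all genes fitted that it called higher, and limma voom with quality weights called 7, all higher, beside 1.26%. The groups did not overlap with shATGL higher in 4 genes, *CEP152*, *CEP170B*, *CEP131* and *CEP250* (7.93% of all genes tested), and with shATGL lower in 4 others, *CEP20*, *CEP68*, *CEP41* and *CEP76* (9.38%).

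Without shATGL 3 the median log2 fold change was 0.41, and 20 *CEP* genes were higher at an adjusted p under 0.05 in edgeR, beside 7.94% of all genes tested. Only *CEP20* was lower at that threshold. With a 2-fold change also required, 7 were called, all higher, beside 1.5% of all genes: *CEP350*, *CEP152*, *CEP295*, *CEP83*, *CEP135*, *CEP162* and *CEP290*. In this fit *CEP350* had a log2 fold change of 1.09 ± 0.07 (SE) and *CEP152* one of 1.43 ± 0.13. Leaving out shATGL 1 or shATGL 2 instead gave medians of 0.16 and 0.18, with 3 and 2 members at an unadjusted p under 0.05. Leaving out shNC 1 gave 4 and shNC 2 gave 9, all higher, and shNC 3 gave 6, of which 4 were higher. Shares of all genes at this threshold were not taken for the fits without shATGL 1, shATGL 2 or a control library. shATGL 3 alone against shNC, an alternative chosen after seeing the data, gave a median of -0.06, with 12 genes higher and 24 lower. The median of all genes in that fit was -0.02, and their share above 0 was not taken.

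**Figure D2:**
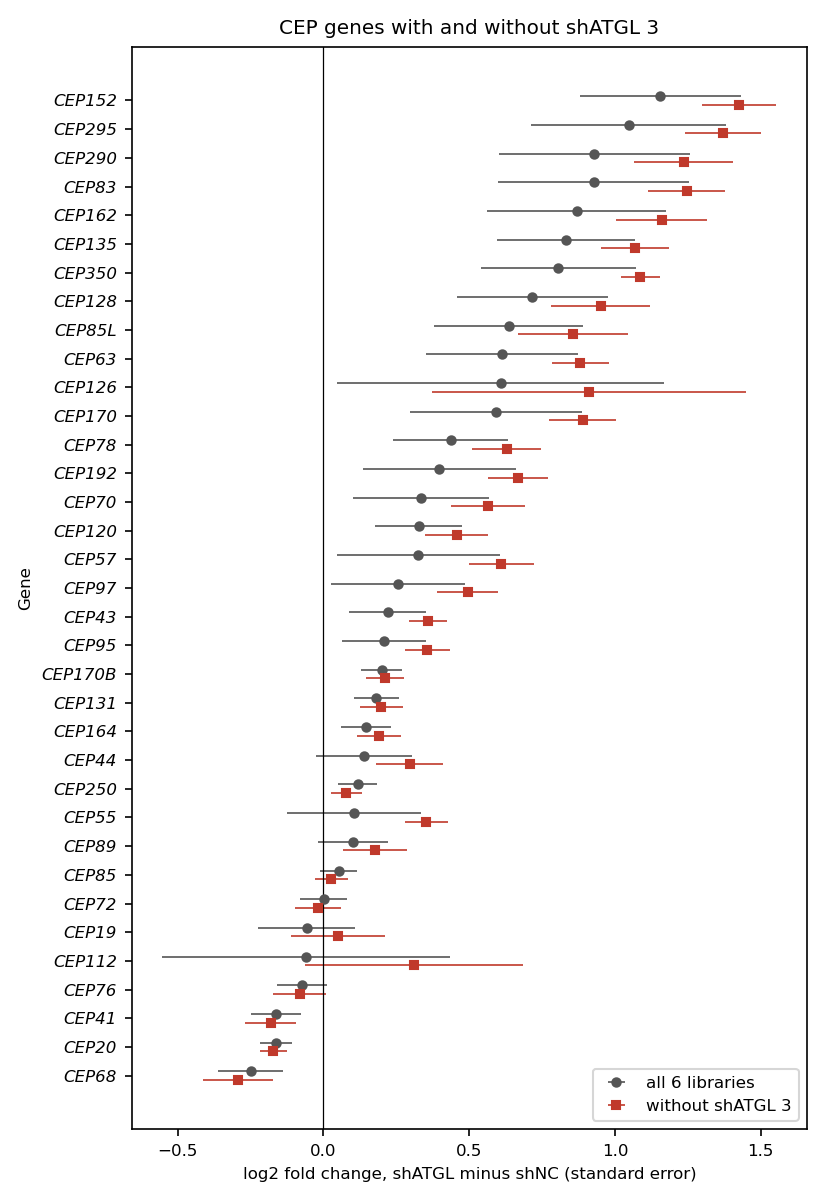
Log2 fold change (shATGL minus shNC, horizontal axis) of the 35 *CEP* genes named here with its standard error, from all 6 libraries (grey circles) and without shATGL 3 (red squares). Without shATGL 3 the median of the 36 genes moved from 0.24 to 0.41, and the standard error of *CEP152* from 0.28 to 0.13.

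The replicates of shATGL were spread more widely than those of shNC. The median coefficient of variation (CV) of a *CEP* gene was 8.20% in shNC and 27.7% in shATGL, beside 10.5% and 13.6% for all genes tested. The CV was larger in shATGL in 26 of the 36 genes, and in 61.1% of all genes tested. It was over 30% in shATGL in 18 genes and in shNC in 1, *CEP126*.

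Centriole assembly and duplication took 12 of the genes, of which 11 had a log2 fold change above 0, with a median of 0.36. Of the 12, 5 were higher at an unadjusted p under 0.05. Over all genes tested the shares were 51.9% and 5.77%. *CEP152*, the scaffold that brings the duplication kinase PLK4 to the mother centriole, was at 11.2, 15.4 and 13.0 CPM in shNC, against 36.5, 34.5 and 17.1 CPM in shATGL. All 3 shATGL libraries were above the control, shATGL 3 by the least, and the log2 fold change was 1.16 ± 0.28 (SE; edgeR adjusted p = 0.392). Its partner *CEP63* was at 19.9, 20.4 and 16.8 CPM in shNC, against 35.9, 34.3 and 17.1 CPM in shATGL. Here shATGL 3 fell inside the control range, and the log2 fold change was 0.61 ± 0.26 (SE).

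*CEP135*, a protein of the cartwheel on which the new centriole forms, measured 8.41, 10.1 and 8.28 CPM in shNC, against 18.8, 18.7 and 10.1 CPM in shATGL. *CEP295*, needed for the new centriole to mature into a centrosome, measured 11.3, 15.4 and 12.8 CPM in shNC, against 32.1, 36.1 and 13.4 CPM in shATGL. In both genes shATGL 1 and 2 were above all the others and shATGL 3 was within the control range. The log2 fold changes were 0.83 ± 0.24 for *CEP135* and 1.05 ± 0.33 for *CEP295*. *CEP350*, a large protein that stabilizes the centriole and anchors microtubules, was at 73.6, 77.5 and 72.3 CPM in shNC, against 148, 169 and 73.7 CPM in shATGL. Its control libraries differed by a CV of 3.61%, its shATGL libraries by 38.5%, and shATGL 3 sat inside the control range.

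*CEP76*, which limits centriole reduplication, was at 15.5, 14.9 and 14.5 CPM in shNC, against 14.3, 14.1 and 14.3 CPM in shATGL, without overlap but with a log2 fold change of only -0.07 ± 0.09 (SE). *CEP85*, which binds the assembly factor STIL, was at 80.7, 74.1 and 75.5 CPM in shNC, against 77.9, 78.8 and 82.1 CPM in shATGL. The groups overlapped, and the 95% interval of its log2 fold change ran from -0.10 to 0.20. The remaining 5 assembly genes had log2 fold changes from 0.14 (*CEP44*) to 0.40 (*CEP192*, which recruits pericentriolar material), with *CEP57*, *CEP97* and *CEP120* between them.

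Of 10 genes of the appendages and of microtubule anchoring, 7 had a log2 fold change above 0, beside 51.9% of all genes tested. The median was 0.17. *CEP83*, the innermost protein of the distal appendages, was at 3.66, 4.05 and 3.58 CPM in shNC, against 8.98, 8.89 and 3.54 CPM in shATGL. *CEP128*, a subdistal appendage protein, was at 8.38, 11.5 and 8.24 CPM in shNC, against 19.99, 16.2 and 9.88 CPM in shATGL. For *CEP83*, shATGL 3 was below every control, and for *CEP128* it was within them. The log2 fold changes were 0.93 ± 0.33 and 0.72 ± 0.26 (SE).

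*CEP170B*, a paralogue of the subdistal appendage gene *CEP170*, was at 33.2, 36.0 and 34.3 CPM in shNC, against 40.7, 39.4 and 38.9 CPM in shATGL. All 3 shATGL libraries stood together above the control, with a CV of 2.39%, and the log2 fold change was 0.20 ± 0.07 (SE). *CEP170* itself had a log2 fold change of 0.59 ± 0.30, and its pseudogene *CEP170P1*, with 58 to 236 counts per library, can share reads with it. *CEP20*, a small relative of *CEP43* that helps ciliary assembly, was at 86.4, 84.7 and 85.4 CPM in shNC, against 76.4, 75.5 and 77.0 CPM in shATGL. It had the most even replicates of the 36 genes, with CVs of 1.03% and 1.004%, and all 3 shATGL libraries were below the control. Its log2 fold change was -0.16 ± 0.06 (SE; edgeR adjusted p = 0.392), and -0.17 ± 0.05 without shATGL 3 (adjusted p = 0.0471).

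*CEP112* had the second lowest level per length, at 0.428, 0.454 and 0.465 CPM in shNC, against 0.634, 0.483 and 0.166 CPM in shATGL. These values rest on 10 to 47 counts per library, shATGL libraries lay above and below the control, and the 95% interval of the log2 fold change ran from -1.21 to 1.09. The other 5 members of this group ranged from -0.06 (*CEP19*) to 0.59 (*CEP170*), with *CEP43*, *CEP89* and *CEP164* between them.

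Of 8 genes of the cilium, its transition zone and the centriolar satellites, 6 had a log2 fold change above 0, with a median of 0.31. Over all genes tested 51.9% were above 0. *CEP290*, a transition zone protein of the ciliary base, was at 4.03, 5.34 and 5.82 CPM in shNC, against 11.3, 12.6 and 5.03 CPM in shATGL. *CEP162*, which helps to build that zone, was at 5.60, 4.76 and 4.06 CPM in shNC, against 10.7, 10.8 and 4.76 CPM in shATGL. In both, shATGL 3 lay within the controls and the other shATGL libraries above them, and the log2 fold changes were 0.93 ± 0.33 and 0.87 ± 0.31 (SE). *CEP131*, a protein of the centriolar satellites, had all shATGL libraries together, as in *CEP170B*. It was at 22.2, 21.0 and 21.5 CPM in shNC, against 24.9, 24.7 and 23.8 CPM in shATGL, with no overlap and a log2 fold change of 0.18 ± 0.08 (SE).

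*CEP41*, a tubulin glutamylation factor of the cilium, was at 18.8, 19.3 and 20.9 CPM in shNC, against 17.4, 17.3 and 17.9 CPM in shATGL. All shATGL values were below the control, and the log2 fold change was -0.16 ± 0.09 (SE; adjusted p = 0.488). *CEP72*, a satellite protein, was at 32.4, 35.1 and 31.0 CPM in shNC, against 31.3, 33.6 and 33.7 CPM in shATGL, and the 95% interval of its log2 fold change ran from -0.19 to 0.19. The satellite gene *CEP126* was the lowest member per length, at 0.166, 0.454 and 0.465 CPM in shNC, against 0.877, 0.483 and 0.283 CPM in shATGL. It had 12 to 65 counts per library, its groups overlapped, and its CVs were 47.0% in shNC and 55.2% in shATGL. *CEP78*, a centriolar protein, had a log2 fold change of 0.44 ± 0.20 (SE).

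Among the 5 linker and microtubule-binding genes 4 had a log2 fold change above 0, beside 51.9% of all genes tested. The median of the 5 was 0.21. *CEP250*, the anchor of the fibres that join the centrosomes, was at 63.7, 65.9 and 61.8 CPM in shNC, against 66.1, 68.7 and 72.6 CPM in shATGL. The groups did not overlap, shATGL 3 was the highest library, and the log2 fold change was 0.12 ± 0.07 (SE). Its linker partner *CEP68* was at 10.1, 10.2 and 9.14 CPM in shNC, against 8.42, 7.65 and 8.72 CPM in shATGL, below the control in all 3, with the lowest log2 fold change of the 36 genes, -0.25 ± 0.11 (SE; adjusted p = 0.431).

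*CEP85L*, a pericentriolar protein, was at 3.59, 4.45 and 3.36 CPM in shNC, against 5.90, 7.86 and 3.91 CPM in shATGL. shATGL 3 was within the controls, and the log2 fold change was 0.64 ± 0.26 (SE). *CEP70* and *CEP95* had log2 fold changes of 0.33 and 0.21. *CEP55*, the midbody protein that recruits the machinery of abscission, was at 39.5, 41.96 and 36.6 CPM in shNC, against 49.0, 51.6 and 26.3 CPM in shATGL. Its shATGL libraries lay on both sides of the control, and the log2 fold change of 0.11 ± 0.23 became 0.35 ± 0.07 without shATGL 3.

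**Figure D3:**
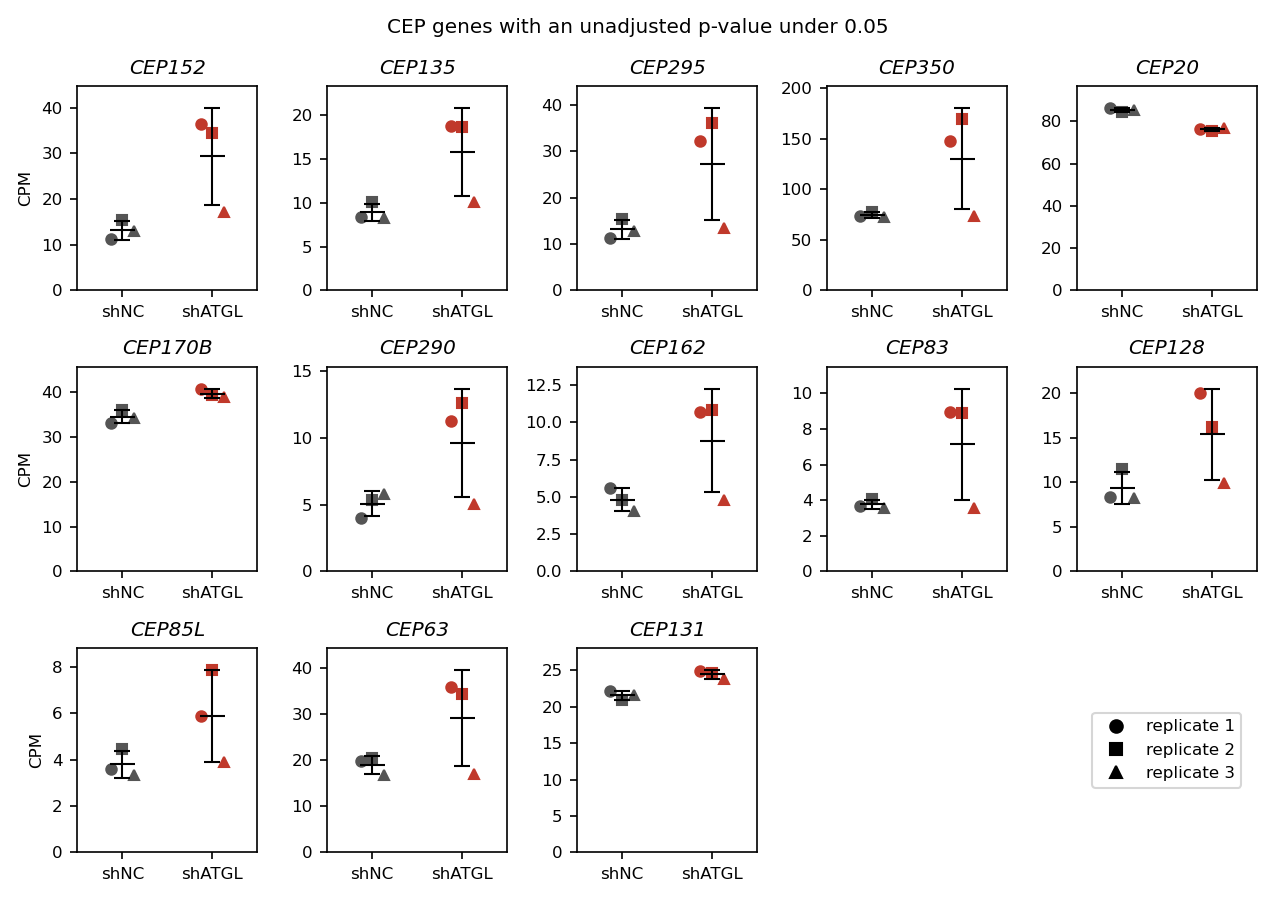
CPM of the 13 *CEP* genes with an unadjusted p under 0.05 in edgeR, by group, with 1 symbol per replicate and the mean and SD of 3 libraries as bars. In most panels shATGL 3 (triangle) is at the control level, as in *CEP350* (73.7 CPM), while in *CEP20*, *CEP170B* and *CEP131* the 3 shATGL libraries lie together.

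Levels between genes were compared as mean CPM per kilobase of exons. They ran from 0.0555 in *CEP126* to 33.8 in *CEP20*, with a median of 2.55. After *CEP20* came *CEP85* (15.2), *CEP55* (12.5) and *CEP72* (8.98). At the lower end, *CEP112* (0.0559) and *CEP126* stood apart from *CEP85L* (0.512) and *CEP290* (0.708). The neighbours *CEP112* and *CEP126* did not differ beyond their spread.

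**Figure D4:**
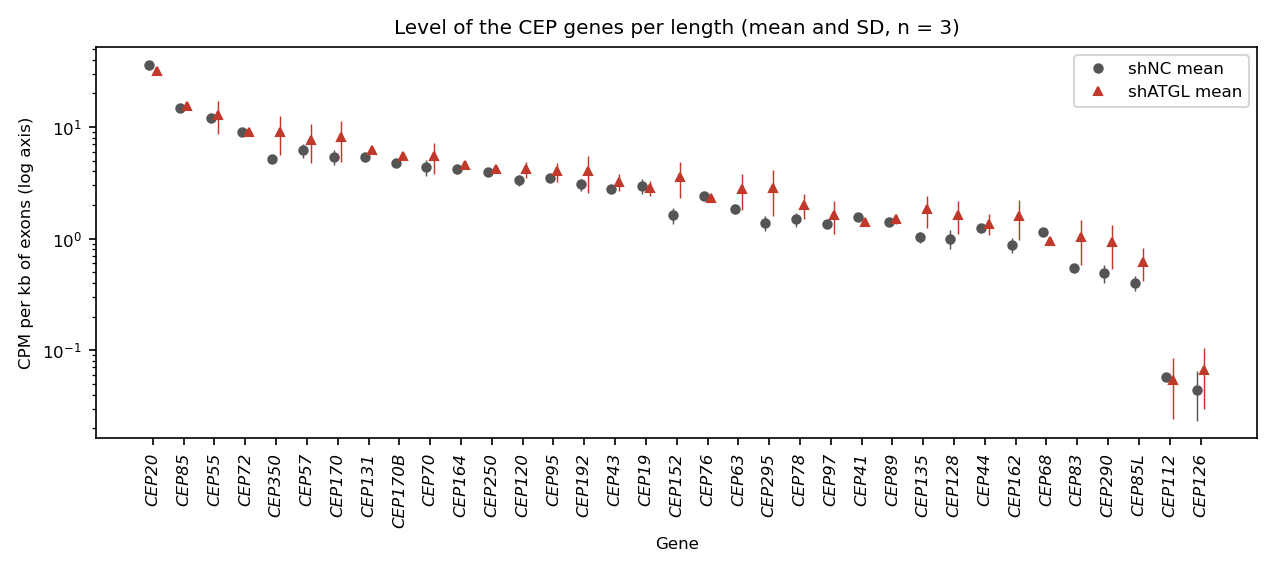
Mean CPM per kilobase of exons with its SD for the 35 *CEP* genes named here (log axis), in 3 shNC (grey circles) and 3 shATGL libraries (red triangles). *CEP20* is highest at 33.8 over both groups, and *CEP112* and *CEP126* are lowest, near 0.056 for *CEP112*.

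*CEP* transcripts are long and poor in G and C. The median exonic length of the 36 genes was 8.18 kb, against 4.02 kb for all genes tested, and the median GC content of the longest transcript was 41.3%, against 48.7%. The log2 fold change fell with GC content (Spearman's rho -0.52 over the 36 genes and -0.16 over 18566 genes with an annotation) and rose with exonic length (0.32 and 0.19). Length and GC content had a rho of 0.01 among the 36 genes. These are correlations across genes that share their libraries and are given as a description. Over the *CEP* genes, GC content and the deviation from the shNC mean had a rho of -0.53 in shATGL 1 and -0.54 in shATGL 2, and one of 0.33 in shATGL 3. All genes gave -0.26, -0.28 and 0.30. The trend was also present among control libraries, with rho over all genes of -0.16, -0.23 and 0.32 in shNC 1 to 3.

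Of the 19 *CEP* genes with a GC content under 42%, 17 had a log2 fold change above 0 and the median was 0.59. In all genes of that GC content the median was 0.12, and 67.2% were above 0. In the other 17 *CEP* genes the median was 0.12, with 12 above 0. In all genes of that content it was -0.02, with 47.1% above 0. Of the 20 *CEP* genes longer than 8 kb, 18 were above 0 with a median of 0.51. All genes of that length had a median of 0.10, with 73.5% above 0. The 16 shorter ones had a median of 0.12 and all such genes -0.01. With each library's trend with length and GC content removed, the *CEP* median was 0.13, with 28 genes above 0. The median of all genes tested was then -0.005. At an unadjusted p under 0.05 there were 12 *CEP* genes, of which 10 were higher. *CEP41* (-0.32) and *CEP68* (-0.30) were lower. The share of all genes at that threshold was not taken for this fit. The part of base composition and length in the *CEP* values beyond this fit was not tested.

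**Figure D5:**
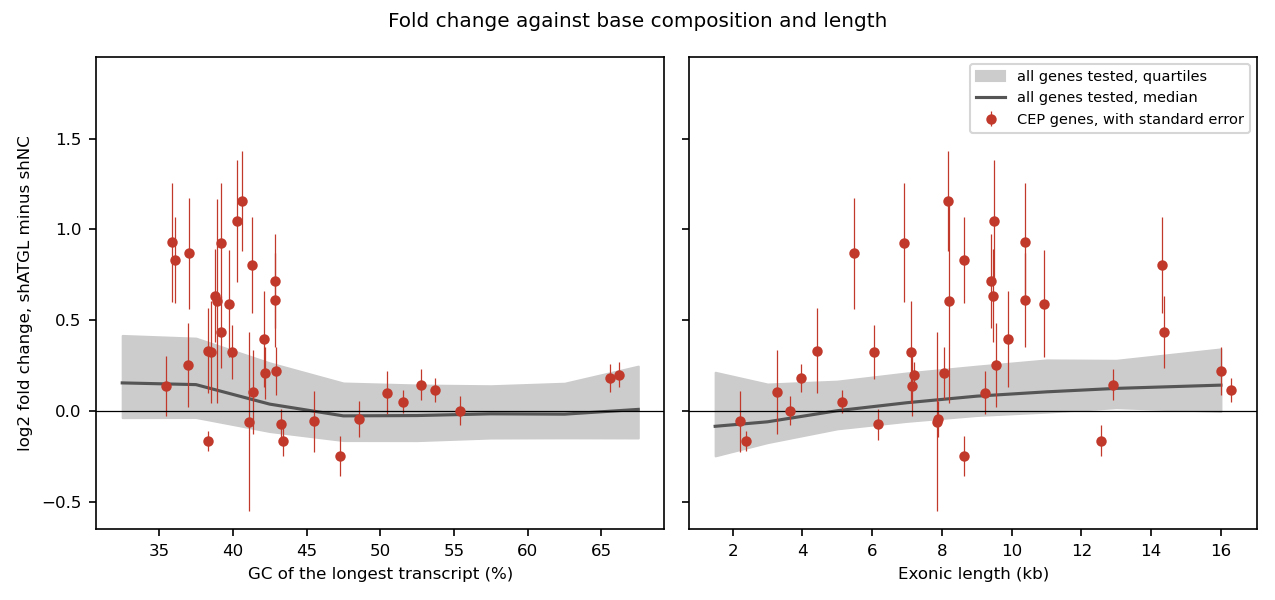
Log2 fold change (shATGL minus shNC) against the GC content of the longest transcript (left, %) and exonic length (right, kb). Red points are the 36 *CEP* genes with standard errors, the grey line is the median and the band the quartiles of all genes tested in bins. *CEP* genes under 42% GC lie mostly above the band, with a median of 0.59.

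The contrast in composition is visible in the coding sequence. Over the 36 genes the log2 fold change had a rho of -0.59 with coding GC content, -0.55 with GC content at the last position of codons and 0.56 with coding length. The 90 bases at the middle of the longest coding sequence in GENCODE 29 are shown for *CEP152*, *CEP135*, *CEP170B* and *CEP131*. In *CEP152* and *CEP135*, shATGL 1 and 2 were well above shATGL 3. In *CEP170B* and *CEP131*, all 3 shATGL libraries stood together above the control. The CPM of shATGL 3 was 1.30, 1.13, 1.13 and 1.10 times the shNC mean in these genes, in the order named. The level of shATGL 3 by itself therefore did not set these pairs apart. Capitals mark G and C.
CEP152: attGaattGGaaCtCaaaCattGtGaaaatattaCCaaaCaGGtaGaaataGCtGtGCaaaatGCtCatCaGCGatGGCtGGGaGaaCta
CEP135: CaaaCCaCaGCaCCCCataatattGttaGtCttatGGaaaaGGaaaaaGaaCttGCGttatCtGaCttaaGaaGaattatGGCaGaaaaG
CEP170B: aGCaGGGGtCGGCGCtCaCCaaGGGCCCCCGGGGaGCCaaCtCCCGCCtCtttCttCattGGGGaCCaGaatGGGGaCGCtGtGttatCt
CEP131: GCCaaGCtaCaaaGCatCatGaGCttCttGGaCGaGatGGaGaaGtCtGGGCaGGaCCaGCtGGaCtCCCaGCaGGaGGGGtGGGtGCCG
The windows span coding bases 2521 to 2610 of *CEP152*, 1666 to 1755 of *CEP135*, 2341 to 2430 of *CEP170B* and 1579 to 1668 of *CEP131*, and 37.8%, 35.6%, 63.3% and 60% of their bases are G or C. Over the whole coding sequences the GC content was 40.6%, 38.2%, 67.2% and 65.1%, and at the last codon position 36.5%, 31.1%, 79.3% and 82.2%. A high GC content was not shared by every gene whose shATGL libraries stood together: *CEP20* (shATGL CV 1.004%) had 42.9% in the coding sequence and 34.8% at the last codon position, and *CEP76* (shATGL CV 1.08%) had 42.4% and 30.7%. In GENCODE 29 (GRCh38) the genes lie at chr15:48712928-48811146 (minus strand), chr4:55948871-56033363 (plus), chr14:104865280-104896770 (plus) and chr17:81189593-81222999 (minus).

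Many genes of centriole duplication and mitosis are controlled through the cell cycle by CHR elements and CCAAT boxes in their promoters. RefSeq promoter windows of 300 bases (GRCh38.p14) were found for 32 of the 36 genes. A CHR element (TTTGAA or TTCGAA) was in 37.5% of them, against 16.4% of the 35116 windows in the table. A CCAAT box (CCAAT) was in 53.1%, against 34.6%, and an E2F-like site (TTTCCCGC, TTTGGCGC or TTTCGCGC) in 12.5%, against 2.74%. A single window was kept for each *CEP* gene. The 35116 windows were limited neither to a single window per gene nor to the genes tested. The shares therefore come from unlike sets. Both strands were searched, and matches that share bases were kept. A match is a description of letters and not a bound site. The 200 bases upstream of the start are shown for *CEP152* and *CEP295*, with the largest log2 fold changes, and for *CEP20*, the gene that was lower at an unadjusted p under 0.05. Capitals mark these motifs on either strand.
CEP152: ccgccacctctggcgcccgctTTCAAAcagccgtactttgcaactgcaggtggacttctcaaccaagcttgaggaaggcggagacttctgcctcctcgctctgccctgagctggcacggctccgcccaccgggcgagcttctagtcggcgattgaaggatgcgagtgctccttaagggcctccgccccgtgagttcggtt
CEP295: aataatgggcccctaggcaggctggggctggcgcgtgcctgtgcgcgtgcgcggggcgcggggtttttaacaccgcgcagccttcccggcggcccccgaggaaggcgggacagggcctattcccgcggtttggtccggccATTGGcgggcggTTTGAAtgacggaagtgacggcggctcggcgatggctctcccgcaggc
CEP20: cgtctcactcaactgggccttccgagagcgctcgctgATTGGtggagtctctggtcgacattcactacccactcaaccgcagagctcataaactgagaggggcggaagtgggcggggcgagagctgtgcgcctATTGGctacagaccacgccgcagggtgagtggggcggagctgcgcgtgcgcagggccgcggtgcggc
They lie at chr15:48811070-48811269 (minus strand), chr11:93661482-93661681 (plus) and chr16:15888604-15888803 (minus). *CEP152* and *CEP295* each hold a CHR element here, *CEP295* also a CCAAT box, and *CEP20* holds CCAAT boxes and no CHR element. *CEP152* also has a CCAAT box in its window of 300 bases, but not within the bases shown. Of the other genes higher at an unadjusted p under 0.05, *CEP135*, *CEP290* and *CEP85L* held a CHR element in their windows. *CEP350*, *CEP162*, *CEP83*, *CEP128*, *CEP63* and *CEP131* held none, and *CEP170B* had no window. Of the named genes with a log2 fold change below 0, *CEP76* held a CHR element. *CEP19*, *CEP20*, *CEP41*, *CEP68* and *CEP112* did not. Whether motif and direction go together was not tested.

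Other genes of the centrosome were taken from a list drawn up by known role. Of 61 tested, 44 (72.1%) had a log2 fold change above 0, beside 51.9% of all genes tested. The median of the 61 was 0.15. At an unadjusted p under 0.05, 11 were higher, beside 5.77% of all genes tested, and 3 lower, beside 5.94%. None passed an adjusted p under 0.05 in edgeR. *PCM1*, the scaffold of the satellites that hold CEP131 and CEP72, was at 101, 118 and 103 CPM in shNC, against 257, 260 and 102 CPM in shATGL. *AKAP9*, *SCLT1*, *ASPM*, *CCDC66*, *CNTRL* and *NIN* had log2 fold changes of 0.68 to 1.02, and *TUBGCP6*, *PCNT* and *WDR62* of 0.19 to 0.43. *HAUS4* and *MZT2A* were at -0.22 and -0.33. By role, the median was 0.49 for 7 satellite genes and 0.00 for 8 augmin genes, with the centriole assembly, pericentriolar and appendage genes between them.

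Of 28 genes of the cell cycle, 10 (35.7%) had a log2 fold change above 0, beside 51.9% of all genes tested. The median of the 28 was -0.05. *CENPE*, *CENPF* and *MKI67* were higher at an unadjusted p under 0.05, with log2 fold changes of 0.92, 0.97 and 0.58. *PCNA*, *CCNB1*, *CCNB2*, *AURKA* and *CCNA2* were lower at that threshold, from -0.20 to -0.13. Over all genes tested, 5.77% were higher and 5.94% lower at it. *CENPF* was at 70.1, 72.4 and 75.7 CPM in shNC, against 178, 181 and 67.8 CPM in shATGL, with shATGL 1 and 2 above the control and shATGL 3 below it. *CCNB1* was at 238, 231 and 250 CPM in shNC, against 209, 202 and 225 CPM in shATGL, lower in all 3. The part of proliferation in the *CEP* values was not tested.

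Reads of overlapping genes could have been counted on either, since the strand setting is not given in the sources used here. Exonic bases were shared with another gene in 16 of the 36 *CEP* genes, and no single gene shared more than 20%. The largest shares were 11.3% of *CEP295* with the opposite-strand gene *AP001273.1* and 11.0% of *CEP72* with *TPPP*. *CEP57L1*, a relative of *CEP57* whose symbol falls outside the pattern, had 1879, 1624 and 1523 counts in shNC and 2811, 2681 and 1070 in shATGL.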

How the data were processed

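RNA was sequenced in 6 MV4-11 libraries, and the labels gave each library its group and replicate number. The authors filtered reads with FASTP and deposited raw counts per Ensembl gene, without normalization. The aligner, counting tool, strand setting and annotation are not given in the sources used here, and the submitters' processing notes name the mouse build mm10 although the identifiers are human. The labels and the supplementary methods also differ on RNA extraction and amplification. Of 61806 identifiers, 58254 had a position in GENCODE 29 (GRCh38), which gave exonic length, GC content and coordinates. A gene name was found for 61804 of the 61806 identifiers, and rows without one could not enter a list by symbol.

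Differences were tested with edgeR 4.0.16 in R 4.3.3 (filterByExpr, minimum count 10, minimum total count 15, TMM, quasi-likelihood test without a block), with Benjamini-Hochberg adjustment over 19149 genes. A call needed an adjusted p under 0.05 and a change of 2-fold or more. CPM used TMM library sizes, and deviations from the shNC mean used log2(CPM + 1). The fit was tested on simulated data. Alternatives were DESeq2 1.42.0, limma 3.58.1 voom with quality weights, other normalizations and filters, each library left out, and splines with 4 degrees of freedom for length and GC content. Deviations from the group mean had correlations of 0.0599, 0.233 and 0.343 between same-numbered libraries. Between libraries of different number they ran from -0.291 to 0.192. The labels state no pairing, so the main fit had no block. Whether same-numbered libraries share a batch was not tested.

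Of the 36 members, 1 is counted in every summary and is not reported here by itself. Members and lists were chosen with earlier results of these data known. Values in every library are given for genes with an unadjusted p under 0.05 or groups that do not overlap, for the 4 highest and 4 lowest per kilobase, and for the 3 largest CVs. *PCM1*, *CENPF* and *CCNB1* were given in every library after their values were seen.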

Additional observations from a re-analysis of the deposited data

How the results depend on the processing

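The count of called genes depended on the tool and on shATGL 3. Over all genes tested it was 1 in the main analysis, 3 with upper-quartile normalization, 24 with DESeq2, 266 with voom, 0 with the replicate block (13 *CEP* genes higher and 1 lower at an unadjusted p under 0.05) and 0 to 319 with 1 library left out. For *CEP* genes called the values were 0, and 1 with DESeq2, 7 with voom and 0 to 7 with 1 library left out, where 7 came without shATGL 3. Members at an unadjusted p under 0.05 numbered 13, 24 with voom and 2 to 26 with 1 library left out. The 26 came without shATGL 3, with 24 higher and 2 lower. In that fit 2891 of the 19149 genes were higher and 2784 lower at this threshold, against 1105 and 1138 in the main analysis. Shares of all genes at this threshold were not taken for voom, the replicate block or the other libraries left out. The *CEP* median log2 fold change of 0.24 was 0.16 to 0.41 when 1 library was left out and 0.13 with length and GC trends removed. It turned to -0.061 for shATGL 3 alone against shNC, an alternative chosen after seeing the data, as were the fits with the length or the GC trend removed alone. shATGL 3 alone gave 12 members higher and 24 lower, with 0 higher and 4 lower at an unadjusted p under 0.05, 8 called genes over all genes tested, a median of -0.087 for the other centrosome genes and 0.033 for *PNPLA2*. The replicate block, which took same-numbered libraries as pairs, left a *CEP* median of 0.20 and no member called, with a lowest adjusted p of 0.141.

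*PNPLA2* was at -0.024 to 0.033 with 1 library left out, and at 0.0021, 0.0080 and 0.018 with length and GC, length alone or GC alone removed. The cell cycle median of -0.054 was -0.069 with upper-quartile normalization and with voom, -0.045 with length and GC removed, -0.041 with length alone, -0.034 with GC alone and -0.077 to -0.027 with 1 library left out. The rho of log2 fold change with exonic length, 0.19, was 0.037 with DESeq2 and 0.036 without a filter, both over 31989 genes, -0.080 with length and GC removed, -0.084 with length alone removed, and 0.048 for shATGL 3 alone.

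Of 490 values of 35 members under 14 alternatives, 434 kept their direction and side of the threshold, 37 came to pass an adjusted p under 0.05 and 19 turned, in 6 members. *CEP72* turned to -0.00066 with DESeq2's size factors, -0.0020 with DESeq2, -0.011 with upper-quartile normalization and -0.023 with voom. *CEP19* turned to 0.041 and *CEP112* to 0.23 with voom, and with length and GC removed *CEP19* turned to 0.015, *CEP44* to -0.069 and *CEP250* to -0.0075. With 1 library left out, the ranges of those that turned were -0.16 to 0.098 for *CEP19*, -0.0024 to 0.30 for *CEP44*, -0.063 to 0.35 for *CEP55*, -0.039 to 0.075 for *CEP72* and -0.45 to 0.31 for *CEP112*. The cause was not tested. The values of *CEP112* and *CEP126* rest on 10 to 65 counts per library, with CVs of up to 55.8% and 55.2%, and whether depth limits them was not tested.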
